A study of Macaca mulatta with 48 samples.

Results

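The interstitial stromal cells of the adult and aged rhesus monkey testis were defined here by RNA of the matrix and growth factor binding genes MGP, IGFBP6 and DCN. The position of the dissociated cells in the tissue was not measured. A cell was counted as a member when it held at least 1 unique molecular identifier (UMI, the tag that marks each captured RNA molecule) in at least 2 of these 3 genes. It also had to hold 0 UMIs of the endothelial genes EMCN and VWF and of the smooth muscle gene MYH11, and less than 5% of its UMIs could come from the sperm head packaging genes PRM1, PRM2 and TNP1. This rule found 3000 members among 73232 filtered cells of the 8 adult and aged libraries (4.10%), in a series of 112150 filtered cells. The values of these genes chose the cells, so they are given as a description and without a test.

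The interstitium of the testis lies around the seminiferous tubules and holds blood vessels, immune cells, the steroid-producing Leydig cells and a fibroblast-like stroma. Stromal fibroblasts lay down fibrillar collagens, small leucine-rich proteoglycans and elastic fibres, and secrete growth factors and complement proteins. The peritubular myoid cells that wrap each tubule share many of these matrix genes but contract, and are told apart by genes of the smooth muscle apparatus such as MYH11 and ACTA2.

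Testis cells of 6 rhesus macaques (Macaca mulatta), a primate that breeds seasonally, were sequenced cell by cell with a droplet method to follow the testis across season and age. There were 2 prepubertal animals of 1 year, 2 adults of 6 years and 2 aged animals of 22 years. Every animal gave 1 testis in the non-breeding season (August) and the remaining testis in the breeding season (December). All breeding samples therefore came from animals that had already lost a testis, and season cannot be told apart from the order of collection. The 8 adult and aged libraries are named here by age group, season and animal, and no treatment or genetic change was described in any group.

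Of these 8 libraries, 7 held members. They had 23072680 to 40620446 UMIs in all and 7411 to 13128 filtered cells each, and their members summed to 70669 to 3193316 UMIs. Only 333 barcodes came from adult animal 2 in the breeding season, of which 117 passed the filter and 46 (39.3% of those) were also barcodes of the breeding library of aged animal 1. None of these 117 cells was a member, so this library entered no comparison of genes. Pairs of the other libraries shared at most 0.465% of the barcodes of the smaller one, and no barcode of a member occurred as a member in a second adult or aged library. Aged animal 1 in the non-breeding season stood apart by supplying 1562 of the 3000 members and by the hemoglobin RNA in them, 3933 counts per 1000000 (CPM) against 0 to 21.2 CPM in members of the other libraries. The remaining cells of that library held 4013 CPM, so its hemoglobin RNA was not particular to the members.

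The members were unevenly spread over the animals. In the non-breeding season they made up 2.94% of the cells of adult animal 1 (272 of 9239, 95% Wilson interval 2.62 to 3.31%) and 4.80% of adult animal 2 (494 of 10298, 4.40 to 5.23%). In the same season they were 12.1% of the cells of aged animal 1 (1562 of 12869, 11.6 to 12.7%) and 2.63% of aged animal 2 (345 of 13128, 2.37 to 2.92%). In the breeding season they were 1.80% of adult animal 1 (169 of 9383, 1.55 to 2.09%), 1.40% of aged animal 1 (104 of 7411, 1.16 to 1.70%) and 0.501% of aged animal 2 (54 of 10787, 0.384 to 0.653%). The breeding library of adult animal 2 had 0 of 117 cells, which allows a share of up to 2.56% (3 counts of 117). The intervals and this limit cover counting error only.

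Every animal with both seasons had the lower share in the breeding season, and the aged animals also differed from each other within the non-breeding season. The share was 1.63-fold lower in adult animal 1, 8.65-fold lower in aged animal 1 and 5.25-fold lower in aged animal 2. The mean log2 ratio was -2.07 ± 1.23 (SD, n = 3 pairs), with a two-sided exact sign-flip permutation p of 0.25, the smallest that 3 pairs allow. With every cell thinned to 1000 UMIs and shallower cells left out, the shares outside and within the breeding season were 2.61% and 0.612% in adult animal 1, 11.1% and 1.37% in aged animal 1, and 0.554% and 0.338% in aged animal 2 (mean log2 ratio -1.94 ± 1.16 SD, n = 3 pairs), so the order of the animals by the size of the change was not kept. With the limit on sperm head packaging RNA raised to 20% (chosen after seeing the data), they were 2.95% and 2.79% in adult animal 1, 14.5% and 2.01% in aged animal 1, and 3.45% and 1.36% in aged animal 2, and the mean log2 ratio was -1.42 ± 1.39 (SD, n = 3 pairs). A share of all cells also moves with the number of germ cells. Counted among stromal, MYH11-positive and endothelial cells only, the pairs went both ways: the share went from 31.1% to 53.0% in adult animal 1, from 55.1% to 48.6% in aged animal 1 and from 43.9% to 31.0% in aged animal 2, with a mean log2 ratio of 0.029 ± 0.659 (SD, n = 3 pairs).

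**Figure D1:**
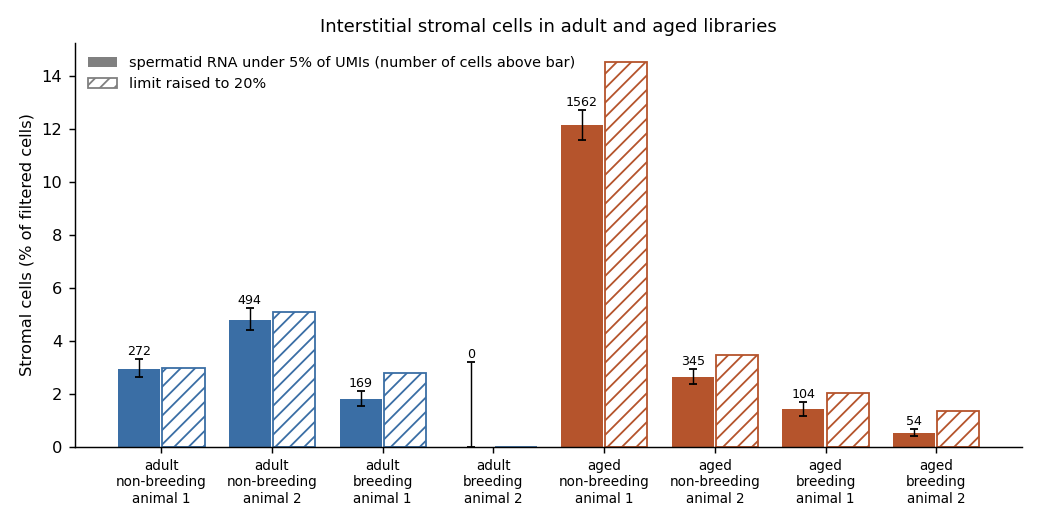
Share of filtered cells that met the rule in each adult and aged library (percent, vertical axis), with 95% Wilson intervals as bars. Aged animal 1 outside the breeding season stands at 12.1%, and each animal with members in both seasons has a lower share in the breeding season.

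With both seasons of an animal summed, the share was 2.37% and 4.74% in the adults and 8.21% and 1.67% in the aged animals. The value of adult animal 2 rested on its non-breeding library, since its breeding library had only 117 cells, whereas each of the other animals had a full breeding library with a lower share. The aged pair lay on both sides of the adult pair. The log2 ratio of the mean shares, aged over adult, was 0.47 (two-sided exact permutation p = 1, where 2 against 2 animals allow no value under 0.333). The ratio was 1.18 with cells thinned to 1000 UMIs. Without aged animal 1 it was -1.09, and among stromal, MYH11-positive and endothelial cells only it was -0.20.

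Cells lay on both sides of each limit of the rule. All 3 genes were detected in 1635 members (54.5%), MGP and DCN in 666, IGFBP6 and DCN in 615, and MGP and IGFBP6 in 84. By library, 50.1% to 70.4% of the members had all 3. DCN was at 2804, 3085 and 3897 CPM in members of the adult libraries and 2677, 2919, 3674 and 3538 CPM in those of the aged libraries, MGP at 1126, 1023 and 1941 CPM and 880.3, 1323, 1509 and 1896 CPM, and IGFBP6 at 678, 913 and 1185 CPM and 1636, 1594, 1668 and 3608 CPM. Just inside the limit, 232 members had exactly 2 UMIs of these genes, and just outside it 3030 cells met every other criterion with only 1 of the 3 genes detected. A further 2828 cells had 2 or more of these genes and were left out for a UMI of EMCN, VWF or MYH11. Between 3% and 5% of their UMIs came from the sperm head packaging genes in 1003 members, and 326 cells with 5% to 8% lay just outside.

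At least 2 of the 3 genes were also detected in some cells of types that should lack them. Among 23730 cells with 5% or more sperm head packaging RNA (spermatid-rich cells below), this share was 4.81%. The median was 2284 UMIs in spermatid-rich cells and 1232 UMIs in members. The share was 9.35% of 417 macrophages, 14.9% of 994 endothelial cells and 16.1% of 211 T cells, classes set by 2 or more of their own marker genes. It was 74.4% of 1881 MYH11-positive cells, the largest share of these classes. Of all 73232 filtered cells, members included, it was 9.52%, below the shares of endothelial cells and T cells. The 3 genes chose the members, so these shares are a description. The 3 genes together gave 5.33 UMIs per 1000 in members, 3.78 in MYH11-positive cells and 0.184 in the spermatid-rich cells. The values were 0.106 in steroidogenic cells, 0.434 in macrophages, 0.695 in endothelial cells and 0.696 in T cells.

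All 22 genes of the interstitial stromal list, which includes the fibroblast collagens and growth factors, had a higher pooled level in members than in the remaining adult and aged cells, 19 of them at least 4-fold, with a median ratio of 11.5 (1 CPM added to both levels). Their summed level was 5254, 5807, 7969.8, 4712, 5573, 5184 and 9042 CPM in the members of the 7 libraries (adults 1 and 2 non-breeding, adult 1 breeding, aged 1 and 2 non-breeding, aged 1 and 2 breeding). In the remaining cells it was 363 to 1179.8 CPM, below the members of the same library in 7 of 7. The summed level did not set members apart from MYH11-positive cells, with a pooled sum of 5231 CPM in members and 5296 CPM in those cells. The same held for the summed collagens (1918 and 1881 CPM) and the small proteoglycan list (694 and 737 CPM).

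Steroidogenic markers of Leydig cells did not stand out in the members. Of 10 steroidogenic genes, 6 were above the remaining cells and 0 reached 4-fold, HSD3B1 had 0 UMIs in members, and INSL3, the insulin-like hormone of mature Leydig cells, was at 0 to 4.38 CPM. The summed steroidogenic level was 212 to 464 CPM in members and 293 to 548 CPM in the remaining cells. Only 18 members had at least 2 of 6 steroidogenic genes. Endothelial markers summed to 27.8 to 99.1 CPM in members, T cell markers to 0 to 123 CPM and macrophage markers to 51.6 to 224 CPM, in each of the last 2 with the highest value in aged animal 1 outside the breeding season.

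RNA of tubule cells was present in the members and differed between libraries. The 11 measured spermatid genes outside the rule summed to 1151, 6689.9, 9473, 12368, 7095, 13566 and 9269 CPM in the same order of libraries. The 10 Sertoli genes summed to 5879, 2593, 895, 541, 381, 142 and 849 CPM in members, with 181 CPM in the remaining cells of aged breeding 2 and 7553, 2313, 849, 503, 332 and 149.7 CPM in those of the other libraries. In 6 of 7 libraries the Sertoli level of members was thus close to that of all the remaining cells. Smooth muscle markers summed to 387, 321, 1289, 550.2, 1284, 798 and 2292 CPM in members although MYH11 was at 0 by the rule.

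**Figure D2:**
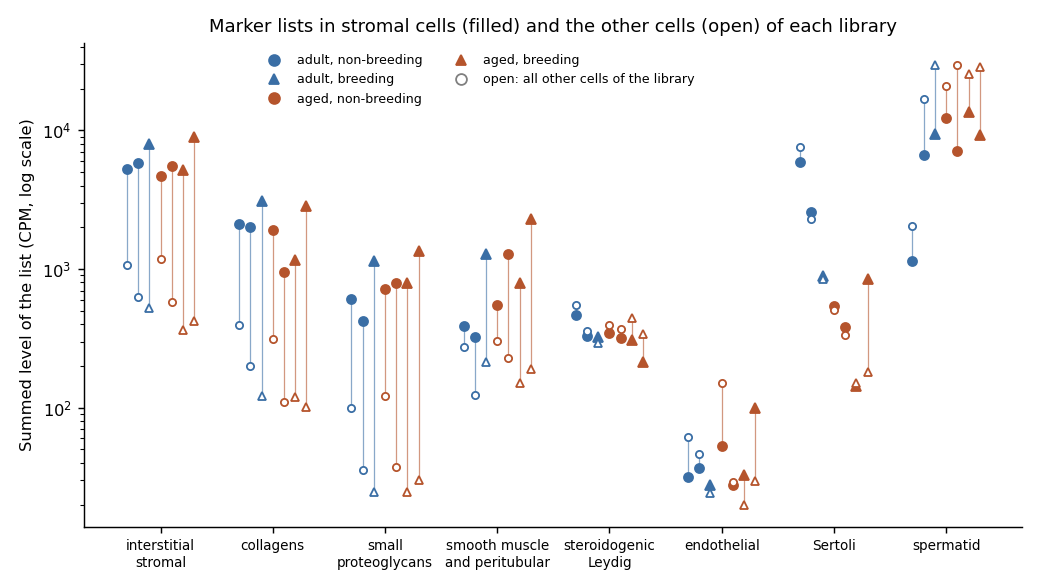
Summed level of 8 gene lists (CPM, log axis) in members of each adult and aged library and in the remaining cells of the same library. The stromal list is higher in members in 7 of 7 libraries, and the spermatid list is lower in members in 7 of 7.

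At a pooled level of at least 20 CPM and at least 4 times that of the remaining cells, 368 genes stood out, a set formed after their values were seen and given without a test. Pooled levels weigh each library by its UMIs, so aged animal 1 outside the breeding season, with 3193316 UMIs in members, weighed most in this order. CCDC80, a secreted matrix protein (chr2:163538341-163574807, Mmul_10), was 27.2-fold above the remaining cells, at 249.9 CPM in members of that library and 43.0, 52.3 and 107 CPM in those of the adult libraries. LUM, which encodes the keratan sulfate proteoglycan lumican (chr11:90873214-90880995), was 26.2-fold above, and COL1A1, the main chain of type I collagen, 25.2-fold. Further leading genes were the growth factor gene IGF2 (22.3-fold), the fibroblast surface protein gene CD248 (22.1-fold), the complement enzyme genes C1R and C1S (19-fold each) and the microfibril gene MFAP5 (19.1-fold). Each of these was above the remaining cells in 7 of 7 libraries.

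LUM was at 160.5, 71.3 and 215 CPM in the adult libraries and 266, 159, 180.4 and 269 CPM in the aged libraries. COL1A1 was at 587, 559 and 931 CPM in the adults and 468, 141, 142 and 410.4 CPM in the aged animals. IGF1, the growth factor gene at chr11:102171555-102254490 (15.5-fold above the remaining cells), was at 389.7, 401 and 433 CPM and 380.2, 463, 629 and 495 CPM. IGF1 varied less between libraries than the collagen and lumican genes, and the adult and aged libraries overlapped in LUM and IGF1. COL1A1 had its lowest adult value above its highest aged value, and the change by age did not pass the test described below (log2 change -0.75 ± 0.44 SE, edgeR adjusted p = 0.532).

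Detection in single cells was compared at equal depth. With every cell thinned to 500 UMIs (0 cells were shallower), IGF2 was detected in 42.1% of members, 26.4% of MYH11-positive cells and 1.92% of spermatid-rich cells (66.5%, 46.9% and 4.45% without thinning). For CLEC3B, which encodes the plasminogen binding protein tetranectin (chr2:101022976-101033074), these shares were 26.9%, 7.39% and 5.71% (43.8%, 15.6% and 24.2% without thinning). For the complement factor D gene CFD they were 18.0%, 4.15% and 1.06% (28.1%, 7.87% and 2.45%). COL1A1 was detected in 20.8% of both members and MYH11-positive cells and in 0.767% of spermatid-rich cells (37.9%, 39.2% and 1.86%). Spermatid-rich cells were taken as cells that should lack these genes, and among the 4 their share was largest for CLEC3B. CLEC3B was at 116 CPM in them, against 6.89 CPM in steroidogenic cells and 44.5 CPM in macrophages, and whether this level is free RNA was not tested. CFD was at 646 CPM in macrophages, above the 491 CPM of the members.

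PDGFRA and DLK1, genes often used for stromal and immature Leydig lineage cells, separated the members poorly. PDGFRA was 1.43-fold above the remaining cells and was detected in 57.1% of members and 53.5% of spermatid-rich cells without thinning (27.3% and 15.3% thinned). DLK1 was 1.50-fold above and was detected in 0.600% of members thinned.

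Matrix and signalling genes of the members were compared with those of MYH11-positive cells of the same 7 libraries. The position of the MYH11-positive cells in the tubule wall or vessels was not measured. Those cells held at least 1 UMI of MYH11 and of ACTA2 or TAGLN. Contractile genes that go with MYH11 were therefore set apart by the choice of the cells, and their values are a description. Other genes that go with MYH11, matrix and signalling genes among them, could be lower in members through the same choice. The choice also worked on the stromal side. Members had to hold at least 2 of the rule genes, which was not asked of MYH11-positive cells and was met by 74.4% of them. Stromal genes that go with the rule genes could thus be higher in members through the choice of the cells. The part of the choice of the cells, on either side, in the values and p-values was not tested. In members, 96 of 9157 tested genes (1.05%) were higher and 335 (3.66%) were lower (edgeR quasi-likelihood test with the library as a block, adjusted p under 0.05), with a median log2 difference of 0.01 over all genes. CLEC3B, PI16, CFD, LUM and the IGF genes were higher in members, and COL4A1, COL4A2, BGN, PTCH1 and HHIP were lower.

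CLEC3B ranged from 322 to 1058 CPM with a median of 776 in members and from 45.2 to 391 CPM with a median of 121 in MYH11-positive cells (log2 change 2.03 ± 0.16 SE, adjusted p = 9.97e-11). PI16, a peptidase inhibitor gene of adventitial fibroblasts (chr4:132485217-132495720), ranged from 73.1 to 410.4 CPM with a median of 279 in members and from 25.0 to 109 CPM with a median of 52.0 in MYH11-positive cells (log2 change 1.68 ± 0.14 SE, adjusted p = 1.94e-10). Both were higher in members in 7 of 7 libraries, while the ranges over libraries overlapped. CFD ranged from 212 to 2674 CPM with a median of 676 in members and from 20.1 to 416 CPM with a median of 141 in MYH11-positive cells (log2 change 2.19 ± 0.22 SE, adjusted p = 1.32e-08). IGF2 ranged from 674 to 1869.9 CPM with a median of 1137 against from 189 to 1118 CPM with a median of 446 (log2 change 1.17 ± 0.13 SE, adjusted p = 9.42e-08), and LUM from 71.3 to 269 CPM with a median of 180.4 against from 43.3 to 141 CPM with a median of 65.1 (log2 change 1.13 ± 0.14 SE, adjusted p = 5.80e-07).

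Of the 22 interstitial stromal markers, 8 were higher in members and 3 lower, with a median log2 difference of 0.40. Beside PI16, CFD and LUM these were IGF1 (0.74), COL1A2 (0.75), FBLN1 (1.03), OGN (0.79) and C7 (0.64), and the lower members were IGFBP7 (-0.78), the pericyte and fibroblast receptor PDGFRB (-1.03) and NR2F2 (-0.43). Of 11 tested complement and chemokine genes 5 were higher, namely CFD, C1R (0.61), C1S (0.51), C7 and the C1 inhibitor gene SERPING1 (0.74), and IL33 was lower (-1.14). Of 10 IGF axis genes 3 were higher (IGF1, IGF2 and IGFBP3, 1.63) and 3 lower (IGFBP7, IGFBP5 and IGFBP2). Several of these calls depended on the setting: IL33 lost its call in 7 of 15 alternatives, DESeq2 among them, IGFBP2 and IGFBP5 in 4 of 16 each, C7 in 3 of 16 and NR2F2 in 2 of 16. Leaving out a library gave -1.50 to -0.80 for IGFBP2 and -0.93 to -0.43 for IGFBP5. The antioxidant enzyme gene GPX3 (1.86) and the Wnt inhibitor gene WIF1 (1.75) were higher too, WIF1 without passing in DESeq2.

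The axon guidance receptor gene ROBO1 (chr2:192125380-193292671) and the synaptic adhesion gene IL1RAPL2 were among the 8 genes of lowest p that were higher in members. ROBO1 ranged from 53.6 to 618 CPM with a median of 257 in members and from 31.2 to 228 CPM with a median of 104 in MYH11-positive cells (log2 change 1.09 ± 0.13 SE, adjusted p = 2.35e-07). IL1RAPL2 had a log2 difference of 1.90 ± 0.21 SE. The immunoglobulin light chain gene IGKC (5.01 ± 0.30 SE) rested on aged animal 1 outside the breeding season, where it was at 2264 CPM in members and 65.8 CPM in MYH11-positive cells, against 0 to 5.47 CPM in members of the other libraries, and DESeq2 put its log2 difference at -0.0100.

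The type IV collagen genes COL4A1 and COL4A2, of basement membranes, were lower in members. COL4A1 ranged from 10.3 to 56.6 CPM with a median of 19.9 in members and from 31.3 to 108 CPM with a median of 69.1 in MYH11-positive cells (log2 change -1.74 ± 0.20 SE, adjusted p = 1.21e-07), and COL4A2 had a log2 difference of -1.76 ± 0.17 SE. Of 9 tested basement membrane genes 4 were lower (both of these, LAMB1 at -0.68 and HSPG2 at -0.65) and 0 higher. HSPG2 lost its call in 10 of 16 alternatives, among them DESeq2, all 3 rule genes and the removal of predicted doublets. The proteoglycan genes BGN (-1.81) and FMOD (-1.61) were lower, opposite to LUM and OGN of the same family. The elastic fibre genes were split, with MFAP5 (1.10), FBLN1 and FBLN2 (0.74) higher and LTBP1 (-1.49), MFAP4 (-0.97) and ELN (-1.05) lower. FBLN2 and MFAP5 did not pass without aged animal 1 outside the breeding season, FBLN2 also not in DESeq2, and ELN did not pass without adult animal 1 of that season or with all 3 rule genes.

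Of 12 tested genes of the hedgehog, Wnt and PDGF list, 3 were lower (PTCH1, HHIP and PDGFRB) and 1 was higher (WIF1), with a median log2 difference of -0.17. The hedgehog receptor gene PTCH1 (-1.22) and the hedgehog inhibitor gene HHIP (-1.69), both direct transcriptional targets of the pathway, were lower in members, as was the matricellular gene CCN2 (-1.69). Among contractile and cytoskeletal genes DMD, which encodes dystrophin, ranged from 21.2 to 156 CPM with a median of 50.1 in members and from 181 to 694 CPM with a median of 341 in MYH11-positive cells (log2 difference -2.88 ± 0.14 SE). The genes TPM2 (-2.14), TPM1 (-2.06), CSRP1 (-2.78), CNN1 (-2.36) and DES (-3.13) were lower too, and so were 6 of 6 tested smooth muscle markers. Spermatid markers (0 of 10), Sertoli markers (0 of 9) and steroidogenic markers (0 of 5) did not pass in either direction.

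**Figure D3:**
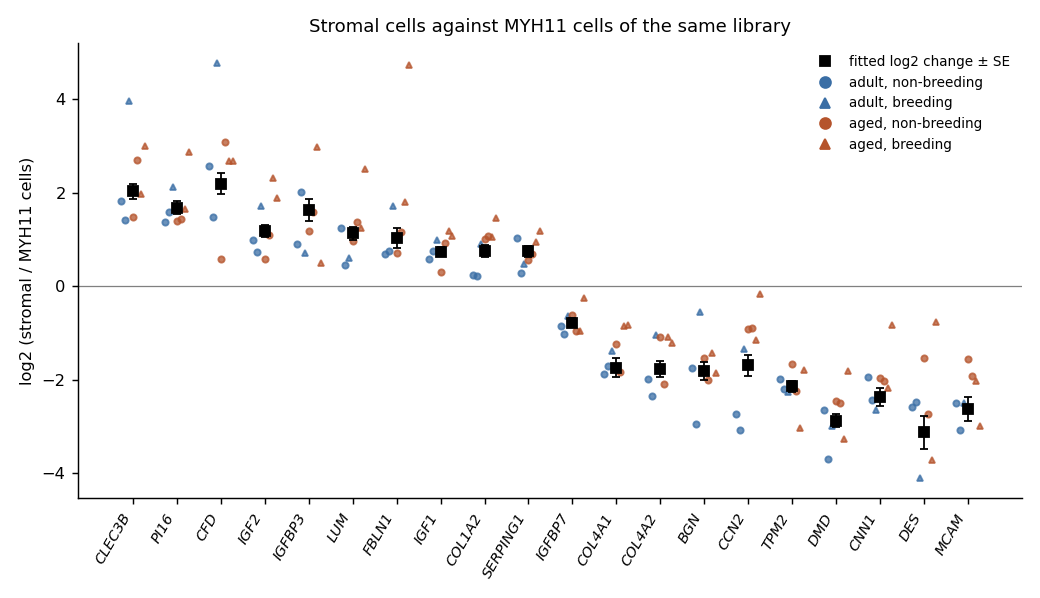
Log2 difference of level between members and MYH11-positive cells in each of the 7 libraries (coloured points, log2 of the ratio of CPM values with 5 CPM added to each) and the fitted value with its standard error (black squares). Secreted factor genes such as CLEC3B lie above 0 and DMD lies below 0 in 7 of 7 libraries.

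Without the library as a block 52 genes passed, 4 higher and 48 lower, and all 52 were among those of the blocked comparison. With the limit on sperm head packaging RNA raised to 20% in members and kept at 5% in MYH11-positive cells, 1125 genes passed. Of these 712 were higher and 413 lower in members, so the balance of directions turned. Without aged animal 1 outside the breeding season, 81 genes were higher and 261 lower.

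To ask how the stroma of older testes differs from that before puberty, the same rule was applied to the 4 prepubertal libraries, where it found 3350 cells (1328, 632, 802 and 588). Their stromal markers stood out less, with a summed level of 4089 to 4890 CPM against 1490 to 1821 CPM in the remaining prepubertal cells. Of their 131 genes that met the same limits for standing out, 87 were also in the set of 368, which is 66.4% of the former and 23.6% of the latter. All 3 rule genes were detected in 16.3% to 35.2% of the prepubertal cells by library, against 50.1% to 70.4% of older members. Prepubertal cells held a median of 4 to 7 UMIs of these 3 genes at a median depth of 1478 to 2507.5 UMIs. Older members held 7 to 10.5 at 721 to 1381.5 UMIs. Apart from the alternative with all 3 rule genes, the part of this difference in the changes was not tested. Per animal, with both seasons summed, 4127 of 13875 tested genes (29.7%) were higher in the adult and aged members and 2702 (19.5%) were lower (edgeR, adjusted p under 0.05, mean of adult and aged minus prepubertal, 2 animals per age). Without aged animal 1 the counts were 3020 and 1801. Genes standing out in the stroma of either age were called at similar rates, 111 of 405 tested higher (27.4%) and 72 lower (17.8%). Adult animal 2 had only non-breeding members. The sums of aged animals 1 and 2 came mostly from that season (3193316 and 503279 UMIs, against 182888 and 70669 in breeding). With non-breeding libraries only (chosen after seeing the data), 3020 of 12921 tested genes were higher and 1851 lower.

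RNA of tubule cells changed in the same comparison. Spermatid genes, defined by a level more than 2 times higher in spermatid-rich cells than in members, made up 18.8% of the genes that were higher with age, 7.41% of those tested and 1.07% of those that were lower. All 11 tested spermatid markers were higher, with a median log2 change of 6.68, and 8 of 10 Sertoli markers were lower, with a median of -2.60. Among the genes of lowest p were the flagellar gene AKAP4 (5.70 ± 0.37 SE) and CCDC187 (8.68) among the higher, and the inhibin subunit gene INHBB (-4.52) and PLEKHA7 (-4.28) among the lower. INHA (-3.40) and AMH (-5.34), products of immature Sertoli cells, were lower too. The part of this RNA in other genes' changes was not tested, and of the genes named below for this comparison only LHCGR had a higher pooled level in spermatid-rich cells than in members. That check bears on spermatid RNA only. Sertoli genes summed to 5467 to 8171 CPM in prepubertal members and 142 to 5879 CPM in older ones, and their part in the lower genes was not tested.

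IGF1, a growth factor that acts on Leydig and germ cells, was higher in the adult and aged members. It ranged from 380.2 to 629 CPM with a median of 433 in the 7 older libraries and was at 75.2, 51.8, 66.5 and 85.0 CPM in the prepubertal ones (log2 change 2.77 ± 0.26 SE, adjusted p = 3.70e-04). LUM ranged from 71.3 to 269 CPM with a median of 180.4 against 35.1, 3.52, 54.8 and 11.4 CPM (log2 change 2.90 ± 0.69 SE, adjusted p = 0.00921), and CFD from 212 to 2674 CPM with a median of 676 against 61.3, 34.7, 136 and 28.1 CPM (log2 change 3.87 ± 0.90 SE, adjusted p = 0.00810). The older and prepubertal libraries did not overlap in any of these 3 genes. In this comparison 49.2% of all tested genes passed. How many of all genes had no overlap was not counted, here or for the genes below. MFAP5, which encodes a microfibril glycoprotein, ranged from 24.4 to 99.1 CPM with a median of 43.7 against 1.59, 0.503, 0 and 0 CPM (log2 change 5.64 ± 0.46 SE, adjusted p = 3.24e-04), the largest fitted change of these 4 genes. Without prepubertal animal 1 the log2 change of LUM was 4.80, and without other animals it was 1.99 or more. Leaving out an animal gave 2.93 to 4.76 for CFD and 5.06 to 6.86 for MFAP5.

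Of 12 genes of the small proteoglycan list 7 were higher and BGN was lower, with a median log2 change of 1.56 against 0.01 for all tested genes. The list also holds ECM1 and VCAN, which are not small proteoglycans. Beside LUM the higher genes were OMD (3.90, and 3.20 to 5.57 without an animal), PODN (2.74), ASPN (2.48), ECM2 (1.78), ECM1 (1.65) and VCAN (1.47). ASPN lost its call in 7 of 14 alternatives and was 1.25 without adult animal 1, PODN and VCAN lost theirs without prepubertal animal 1, and BGN (-1.32) lost its call in 5 of 15, DESeq2 among them, and was -2.26 without adult animal 1. Among the 13 measured elastic fibre genes MFAP5, FBLN5 (2.73) and EFEMP1 (2.41) were higher, and LTBP1 (-1.41) and FBLN2 (-0.92) lower. Of all tested genes 29.7% were higher and 19.5% lower, so these calls do not set the list apart. EFEMP1 did not pass without adult or aged animal 1. FBLN2 was at 11.5, 13.4 and 23.9 CPM in the adult, 122, 57.6, 87.5 and 127 CPM in the aged and 90.0, 79.5, 71.5 and 65.2 CPM in the prepubertal libraries, so that the adult values lay below the prepubertal ones and the aged values on both sides of them, and its call was lost in 7 of 15 alternatives, DESeq2 among them. CLEC3B (4.85), PI16 (2.45), CAV1 (2.64), the Wnt modulator gene SFRP4 (2.70) and the complement gene C3 (4.67, not passing without adult animal 2) were higher as well, and so were the transcription factor genes PRRX1 (2.01) and LHX2 (4.28).

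DLK1 and TCF21, both known from immature stroma, were lower. DLK1, a membrane-bound Notch ligand of progenitor cells (chr7:162943302-162951728), ranged from 0 to 59.7 CPM with a median of 15.9 in the older libraries and was at 115, 212, 167 and 281 CPM in the prepubertal ones (log2 change -3.29 ± 0.36 SE, adjusted p = 3.94e-04). TCF21, a transcription factor gene of stromal progenitors, ranged from 0 to 55.7 CPM with a median of 35.8 against 116, 111, 129.9 and 139 CPM (log2 change -1.69 ± 0.23 SE, adjusted p = 7.95e-04), and the groups did not overlap in either gene. The hyaluronan link protein gene HAPLN1 ranged from 0 to 11.5 CPM with a median of 0 against 32.1, 34.7, 30.1 and 44.8 CPM, with 0 in the 4 aged libraries (log2 change -5.93 ± 0.64 SE, adjusted p = 4.68e-04). ROBO1 (-3.06), EDNRB (-2.79) and SEMA3D (-3.54) were lower too.

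Of the basement membrane collagen genes some fell with age, COL4A1 by 1.33, COL4A2 by 2.53, COL15A1 by 1.65 and COL18A1 by 1.83 on the log2 scale. The type IV chain gene COL4A4 (3.65), COL6A3 (1.41) and COL5A2 (1.12) were higher. COL6A3 lost its call in 6 of 15 alternatives (0.80 to 2.16 without an animal), COL4A1 without prepubertal animal 2 or aged animal 1, and COL5A2 without prepubertal animal 1. In the IGF axis the receptor gene IGF1R (-2.10) and the binding protein genes IGFBP2 (-2.45), IGFBP3 (-1.66) and IGFBP5 (-1.20) were lower while IGF1 was higher. The chemokine gene CXCL12 (-1.51) and the complement gene C7 (-1.31) were lower. Without prepubertal animal 1 IGFBP3 (-0.82), IGFBP5 and CXCL12 (-0.98) did not pass, nor did IGFBP3 and C7 without aged animal 2 or CXCL12 without aged animal 1. Of 8 tested steroidogenic genes, CYP17A1 (-2.57), CYP11A1 (-2.33), HSD3B2 (-2.17) and SCARB1 (-1.81) were lower, and the luteinizing hormone receptor gene LHCGR (2.67), which is also higher in spermatid-rich cells, was higher. CYP17A1 did not pass without prepubertal animal 1. At least 2 of the 6 steroidogenic genes used above were detected in 257 of the 3350 prepubertal cells, against 18 of the 3000 older members, and the part of these cells in the lower values was not tested.

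Immediate early genes respond within minutes to stimuli and to tissue dissociation. In the older members 12 of 19 were lower and 0 higher (median log2 change -1.67), against 19.5% and 29.7% of all tested genes. The summed level of the immediate early genes was 2058, 3852, 1575, 718, 5248, 1482 and 3297 CPM in the older libraries and 4801, 10680.4, 13501 and 15459.9 CPM in the prepubertal ones. In the remaining cells it was 275 to 1854 CPM in the older and 3349 to 9848 CPM in the prepubertal libraries, so the lower level was not particular to the members. Of 13 interferon-induced genes 6 were lower and 0 higher, among them IFI27 (-1.85) and IFI6 (-1.54), where 19.5% of all tested genes were lower. The summed level of this list in members was 1273 to 2246 CPM in the older and 2818 to 4185 CPM in the prepubertal libraries. In the remaining cells it was 138 to 1728 CPM and 2746 to 4644 CPM, so its lower level was not particular to the members either.

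**Figure D4:**
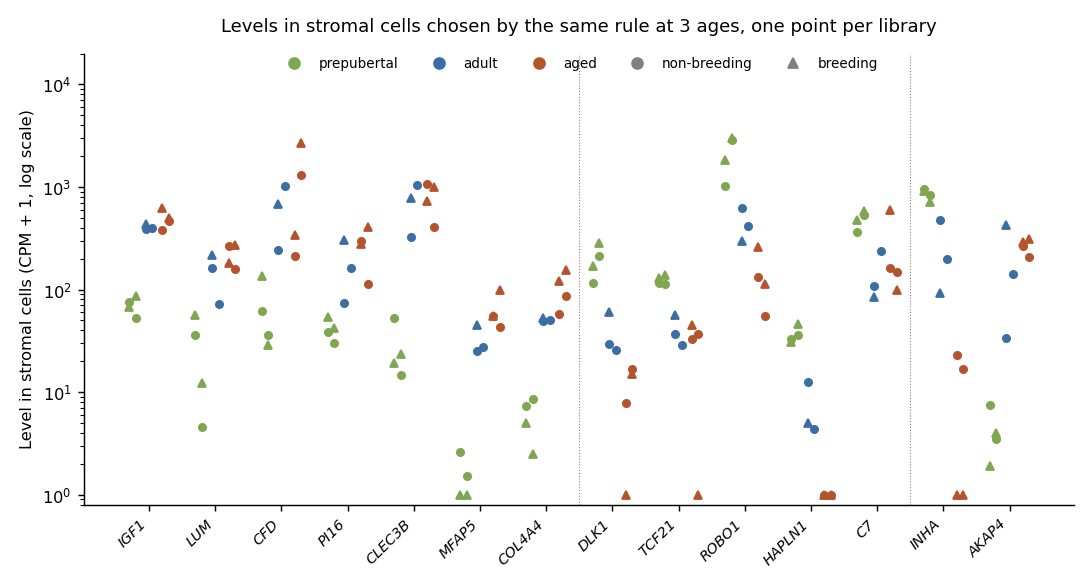
Level of 14 genes in members of each library (CPM + 1, log axis) by age group, with the prepubertal cells chosen by the same rule. The IGF1 values of the 7 older libraries lie above those of the 4 prepubertal libraries, and the DLK1 and TCF21 values lie below them.

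Between the aged and the adult animals, 0 of 13875 genes (0%) passed the edgeR test, with a lowest adjusted p of 0.110 and 1553 genes at an unadjusted p under 0.05 (723 higher and 830 lower). DESeq2 called 106 genes, 17 of them higher in the aged. The 3 genes of lowest p in each direction were the matrix genes FBLN2, FN1 and CCDC80 on the higher side and INHA, PLAC1 and TF on the lower side. None of them passed. Without prepubertal animal 1 or 2 in the shared estimate of the spread 49 and 54 genes passed, and without aged animal 2 there were 6.

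FBLN2, the fibulin gene of elastic fibres, was at 11.5, 13.4 and 23.9 CPM in the adult libraries and 122, 57.6, 87.5 and 127 CPM in the aged libraries, without overlap (log2 change 2.98 ± 0.42 SE, adjusted p = 0.117). FN1, the fibronectin gene, was at 10.0, 18.9 and 39.8 CPM and 81.4, 43.7, 38.3 and 169.8 CPM, where the aged breeding library of animal 1 overlapped the adults (log2 change 2.14 ± 0.36 SE, adjusted p = 0.143). CCDC80 was at 43.0, 52.3 and 107 CPM and 249.9, 115, 82.0 and 368 CPM with overlapping groups (log2 change 2.02 ± 0.34 SE, adjusted p = 0.143). Among the 368 genes chosen after their values were seen, EFEMP1 was at 5.73, 2.23 and 3.98 CPM and 50.1, 29.8, 21.9 and 28.3 CPM, and the guidance ligand gene SLIT3 at 2.87, 23.4 and 31.8 CPM and 90.8, 49.7, 87.5 and 169.8 CPM. Both had higher values in every aged library, and neither passed (edgeR adjusted p = 0.148 for EFEMP1 and 0.163 for SLIT3). Pooled levels chose this set, and aged animal 1 outside the breeding season weighed most in them. That choice favours genes with high values in that library, so the direction of these genes is a description.

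Genes with lower values in the aged were present among the 368 too, a set in which aged animal 1 outside the breeding season weighed most. IGF2 was at 1552, 1869.9 and 1137 CPM in the adults and 674, 995, 957 and 1486 CPM in the aged animals (log2 change -0.76 ± 0.32 SE), and ROBO1 had a log2 change of -1.98. Of the 13 interferon-induced genes 12 had a positive change and 0 passed, with a median of 0.76 against 0.07 for all tested genes. In aged animal 1 outside the breeding season this list summed to 2246 CPM in members and 1728 CPM in the remaining cells. In the other adult and aged libraries it was 1273 to 1882 CPM and 138 to 914 CPM. The high level in that library was thus not particular to the members. Sertoli RNA had lower values in the aged members, with 0 of 10 markers positive and a median of -2.43, and INHA was at 476, 196 and 91.5 CPM and 22.2, 15.9, 0 and 0 CPM. Its part in the other values was not tested.

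Between the seasons, with each library as a sample, 0 of 11104 genes (0%) passed in adults, in aged animals, in the mean of both or in the difference of the seasonal change between the ages (edgeR). The genes at an unadjusted p under 0.05 numbered 582 in adults, 251 in aged animals, 532 for the mean and 333 for the difference, and DESeq2 called 0, 0, 3 and 0. Both testes came from the same animal, so the animal was also entered as a replicate block, which left 1 residual degree of freedom and let adult animal 1 alone carry the adult change. Then 616 genes (5.55%) passed in adults, 20 (0.18%) in aged animals, 370 (3.33%) for the mean and 239 (2.15%) for the difference. Of the 242 genes higher in the breeding season for the mean, 186 (76.9%) were spermatid genes as defined above, against 7.91% of the genes tested. Without the block but with the non-breeding library of adult animal 2 left out, 451 genes passed in adults, 229 for the mean and 158 for the difference, and with that of aged animal 2 left out the counts were 14 in adults, 10 in aged animals, 13 for the mean and 1 for the difference. Leaving out adult animal 1 of the same season gave 1 in adults and 4 for the mean.

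CCN2, BGN, HTRA3, SFRP4 and ACTA2 had the higher value in the breeding season in 3 of 3 pairs. These genes were named with their values known, and how many of all genes rose in 3 of 3 pairs was not counted. In the mean of both ages 10 of 13 elastic fibre genes, 13 of 16 collagens and 5 of 7 tested smooth muscle markers had a positive change, with 0 of each list passing without the block. The summed level of the smooth muscle markers in members was 387 and 1289 CPM in adult animal 1, 550.2 and 798 CPM in aged animal 1, and 1284 and 2292 CPM in aged animal 2, and CCN2 and BGN were lower in members than in MYH11-positive cells. The summed interstitial stromal list was also higher in the breeding season in 3 of 3 pairs. It went from 5254 to 7969.8 CPM in adult animal 1, 4712 to 5184 in aged animal 1 and 5573 to 9042 in aged animal 2. DCN, MGP and IGFBP6 rose in 3 of 3 pairs too. The 365 tested genes that stood out in the stroma had a median mean change of 0.33, against -0.13 for all tested genes. The part of smooth muscle RNA and of this general stromal level in the seasonal values was not tested. CCN2, a matricellular gene induced by mechanical load and TGF-beta, was at 14.3 and 103 CPM in adult animal 1, 14.1 and 82.0 CPM in aged animal 1, and 55.6 and 99.1 CPM in aged animal 2 (non-breeding, then breeding). Its mean log2 change was 2.21 ± 0.49 SE (adjusted p = 0.558, and 2.09e-05 with the animal as a block). The breeding value was the higher in 3 of 3 pairs, and the non-breeding library of adult animal 2 was at 12.3 CPM.

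Of 365 tested genes that stood out in the stroma, 18 (4.93%) passed as higher and 0 as lower for the mean with the animal as a block, against 242 (2.18%) higher and 128 (1.15%) lower of all 11104 genes. BGN was at 25.8 and 107 CPM in adult animal 1, 20.4 and 49.2 CPM in aged animal 1, and 35.8 and 56.6 CPM in aged animal 2, with a mean log2 change of 1.77 ± 0.48 SE. The serine protease gene HTRA3 was at 47.3 and 171 CPM in adult animal 1, 41.6 and 93.0 CPM in aged animal 1, and 33.8 and 156 CPM in aged animal 2. SFRP4 was at 12.9 and 75.6 CPM in adult animal 1, 56.1 and 87.5 CPM in aged animal 1, and 47.7 and 99.1 CPM in aged animal 2. The 54 members of aged animal 2 in the breeding season summed to only 70669 UMIs, so values of this size there rest on few molecules. All 3 genes were higher in breeding in 3 of 3 pairs, passed with the animal as a block (adjusted p = 0.0233, 6.35e-04 and 0.0130) and did not pass without it (0.637 each).

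The matrix glycoprotein gene ECM1 had a mean log2 change of 1.37 (adjusted p = 0.637, and 0.0199 with the animal as a block). Of 12 genes of the small proteoglycan list 11 had a positive change, with a median of 0.61 against -0.13 for all genes. ACTA2, the smooth muscle actin gene, was at 192 and 696 CPM in adult animal 1, 134 and 349.9 CPM in aged animal 1, and 562 and 1245 CPM in aged animal 2 (adjusted p = 0.720, and 5.52e-05 with the animal as a block). TAGLN, another contractile gene, was at 68.8 and 378 CPM in adult animal 1, 228 and 175 CPM in aged animal 1, and 493 and 651 CPM in aged animal 2, with the breeding value the lower in aged animal 1. Collagens had a median change of 0.34, and 0 of 16 passed under either model.

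RNA of tubule cells had seasonal values too. The cystatin gene CST9L was at 1563 and 143 CPM in adult animal 1, 161 and 10.9 CPM in aged animal 1, and 121 and 56.6 CPM in aged animal 2 (log2 change -2.81 ± 0.49 SE, adjusted p = 0.197, and 8.23e-12 with the animal as a block), and it was not higher in members than in the remaining cells. The genes C20H16orf82 (1.73) and ISG20L2 (1.74), of lowest p among the higher after CCN2, were over 5 times higher in spermatid-rich cells than in members. Of 10 Sertoli markers 0 had a positive mean change (median -1.76), and of 11 spermatid markers all did (median 0.69). The share of sperm head packaging RNA in members was 0.0951, 0.877, 2.18 and 1.03% outside the breeding season (adults 1 and 2, aged 1 and 2) and 2.59, 2.41 and 3.10% within it (adult 1, aged 1 and 2). The part of this RNA in the seasonal values was not tested.

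**Figure D5:**
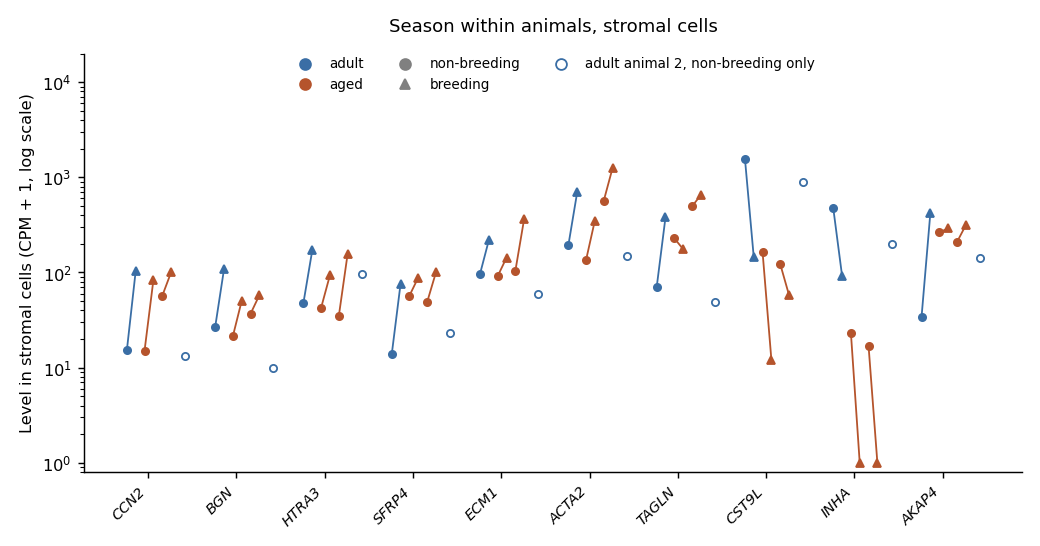
Level of 10 genes in members of each adult and aged library (CPM + 1, log axis), with the non-breeding and breeding library of an animal joined by a line and an open circle for the non-breeding library of adult animal 2, which has no partner. CCN2, BGN, HTRA3 and SFRP4 are higher in the breeding season in 3 of 3 pairs.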

How the data were processed

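Per the labels and the submitters' processing notes, the authors sequenced 10x Genomics libraries, processed them with Cell Ranger 9.0.0 against the Mmul_10 assembly, and deposited 12 matrices of UMI counts per gene and barcode (26530 features, 9920 without a symbol, of which 599 were named from a reference table). The sources used here do not say if intronic reads were included. The labels list 48 samples, 8 per group, and name no matrix, so age, season and animal of each library came from the library sheet of the study's supplement, which calls the youngest group pubertal where the labels call it prepubertal. What the 8 listed samples per group are is not stated, so n is the number of animals.

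The limits of the study on single cells were used (300 genes or more, up to 30000 UMIs, up to 3% of UMIs from 13 mitochondrial genes). Its later removal of clusters with high decontX contamination scores and of DoubletFinder doublets was not repeated, so cells that it left out are included here. Raw counts were summed over the members of a library (seasons, MYH11-positive cells) or an animal (age), where at least 20 members were present. Levels are CPM of the summed counts of the members. After filterByExpr, genes went through edgeR 4.0.16 (R 4.3.3, quasi-likelihood F-test, TMM scaling, Benjamini-Hochberg over all genes tested, threshold 0.05), and DESeq2 1.42.0 was the alternative. The season model had 4 group means and the age model 3. MYH11-positive cells were compared with the library as a block. Adjusted p-values measure the spread between 2 animals per age, between the 7 libraries of 4 animals in the comparison with MYH11-positive cells, and between 2 libraries per group by season, where the adult breeding group had only 1 and was assumed to vary like the others.

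The season pairs come from the same animals. Of the adult and aged groups only the aged has 2 complete pairs, and there the difference between animals in one season correlated with that in the other at r = 0.0808 over 11110 genes. Scrublet (scanpy 1.11.5) gave doublet scores, and the highest were called at 0.8% per 1000 cells, since its own threshold called almost no cells in some libraries. Doublets were kept in the main values and left out in an alternative. Other alternatives were DESeq2 size factors, no filter on low counts, all 3 rule genes, thinning to 1000 UMIs, another denominator and leaving out libraries or animals. Members, the 30 gene lists and the comparisons were chosen with earlier results of these data known. In each comparison the named genes were the 8 of lowest p in each direction (3 where none passed) with a mean of at least 5 CPM, the members of the lists that passed (at most 4 per list) and otherwise the list member of highest level. Other genes, among them the rest of the list members given and those that stood out in the stroma, were named after their values were seen. Some genes that met the rule are not reported here. Gene positions come from RefSeq's Mmul_10 annotation. Counting could split reads among members of gene families. Figures were drawn with matplotlib 3.10.9.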

Additional observations from a re-analysis of the deposited data

How the results depend on the processing

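The seasonal change of the member share kept its direction with all 3 rule genes, with thinning and without predicted doublets, was -1.42 with the sperm head packaging limit at 20% (chosen, like every use of this limit, after seeing the data) and 0.029 on the log2 scale with stromal, MYH11-positive and endothelial cells as denominator, where adult animal 1 changed upwards and both aged animals downwards. Leaving out an animal gave -2.75 to -1.55. The change by age was 1.18 with thinning and -0.20 with that denominator, and leaving out an animal gave -1.09 to 1.21. For genes by season, no filter on low counts gave 55 (adult), 11 (aged), 32 (mean) and 3 (difference), and the animal as a replicate block gave 616, 20, 370 and 239, while DESeq2 gave 3 for the mean. Leaving out a library gave 0 to 451, 0 to 10, 0 to 229 and 0 to 158. For aged minus adult, DESeq2 gave 106, no filter 470, all 3 rule genes 12 and leaving out members with 2 or more UMIs of other cell types' markers (an alternative chosen after seeing the data) 51, and leaving out an animal gave 0 to 54. Older minus prepubertal gave 4479 with all 3 rule genes and 4705 to 7362 without an animal. Members against MYH11-positive cells gave 52 with no replicate block, 1125 with the sperm head packaging limit at 20% in members only and 299 to 535 without a library, and IGKC was at -0.0100 with DESeq2. The causes were not tested. Among the named genes, 18 of 51 against MYH11-positive cells and 47 of 65 by older age kept their call in every alternative. The planned removal of members with markers of other types including Sertoli and spermatid genes left at most 3 members in an adult or aged library and gave no value. No season pair of adult animal 2 could be formed. Small member counts in the breeding libraries (54 to 169) limit low genes.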
